A study of Homo sapiens with 17 samples.

Results

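The 9 genes described here encode matrix metalloproteinases, and they were taken by symbol from the 41040 named genes of each count file: MMP1, MMP2, MMP3, MMP10, MMP11, MMP12, MMP14, MMP16 and MMP19. They were followed by bulk RNA-seq in IMR-90, a human fetal lung fibroblast line, untreated or after exposure to etoposide, a drug that traps topoisomerase II on broken DNA and was used to make the cells senescent. The week 0 group was 5 libraries of untreated cells (replicates 1, 3, 4, 5 and 6). The week 1 and week 4 groups were 6 libraries each of cells given 20 µM etoposide for 48 h, after which the drug was removed and the cells were kept until harvest. Untreated cells were collected at week 0 only, so treatment and time in culture cannot be told apart, and all libraries come from the same cell line. Whether replicates of a group were grown separately is not stated in the labels. The p-values therefore cover only the spread among these libraries, and that spread may be technical.

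Matrix metalloproteinases are zinc-dependent enzymes that cut collagens, elastin, proteoglycans and other matrix proteins, and also release growth factors and receptors from the cell surface. They are made as inactive precursors, and a second protease or a furin-type convertase removes the blocking propeptide. Tissue inhibitors of metalloproteinases (TIMPs) bind the active site, so transcript levels alone do not give enzyme activity. Several members belong to the set of proteins that senescent fibroblasts are known to secrete.

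All 9 enzymes share a catalytic site in which 3 histidines hold the zinc ion and a glutamate activates the water molecule. The coding bases of that site are shown for 8 members because they mark the enzymes as one family and show how close the members are to each other at the bases a read covers. They run 5′ to 3′ along the coding strand, in GENCODE 29 on GRCh38. Capitals mark the codons of the first histidine and the glutamate, and then those of the second and the third histidine.
MMP1: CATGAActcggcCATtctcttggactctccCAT
MMP2: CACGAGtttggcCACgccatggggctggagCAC
MMP3: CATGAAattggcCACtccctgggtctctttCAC
MMP10: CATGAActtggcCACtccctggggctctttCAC
MMP11: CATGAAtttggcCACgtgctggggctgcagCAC
MMP12: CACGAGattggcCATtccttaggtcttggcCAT
MMP14: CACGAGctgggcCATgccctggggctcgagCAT
MMP19: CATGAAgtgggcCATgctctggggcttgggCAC

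These bases lie at chr11:102795549-102795581 for MMP1, chr11:102840535-102840567 for MMP3, chr11:102776718-102776750 for MMP10 and chr11:102868011-102868043 for MMP12, all on the minus strand. They lie at chr16:55491827-55491859 for MMP2, chr22:23780885-23780917 for MMP11 and chr14:22843283-22843315 for MMP14, all on the plus strand, and at chr12:55839596-55839628 on the minus strand for MMP19. The site falls in exon 5 of each transcript shown except that of MMP2, where it falls in exon 8. MMP3 and MMP10 were the closest pair, with 31 of 33 bases identical, and the other pairs shared 18 to 27 of 33. The likeness of MMP3 and MMP10 bears on their counts: 2.88% of the 50-base stretches of MMP3 transcripts also occur in MMP10, and 3.36% of those of MMP10 occur in MMP3, so a small part of their reads could have been split or dropped. MMP10, MMP1, MMP3 and MMP12 are adjacent protein-coding genes on chromosome 11, in that order and all on the minus strand.

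The libraries held 77.2 to 102.8 M counts each (M, 1e6). Levels are CPM, counts per 1e6 counts of the library, scaled by the trimmed mean of M-values (TMM), and differences are log2 fold changes from edgeR's quasi-likelihood test, with Benjamini-Hochberg adjustment over 16891 tested genes. A gene was called where its adjusted p fell below 0.05. Without the TMM factors the median of all genes moved by -0.18 (week 1) and -0.19 (week 4) on the log2 scale against week 0, so that changes from week 0 are relative to the bulk of genes. In week 0 replicates 1 and 4, MMP1 was higher and MMP2, MMP14 and MMP16 were lower than in the other 3 untreated libraries. All 10 listed fibroblast markers were at 1 CPM or more in each group, by library totals without TMM factors. Strand was not given for the counting, and part of the exon bases of some members overlap a gene on the other strand: 17.4% for MMP19 (TMEM198B), 7.61% for MMP1 and 1.56% for MMP3 (both WTAPP1), and 4.21% for MMP11 (CHCHD10). For MMP2, 3.53% are shared with AC007336.3 on the same strand.

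The members did not move as one. Of the 8 members with enough counts to test, MMP2, MMP14 and MMP19 rose at week 1 and MMP3, MMP10 and MMP16 fell, beside 66.9% of all tested genes called in either direction (32.9% higher and 34.0% lower). At week 4 against week 0, MMP2, MMP14 and MMP19 were again higher and MMP1, MMP3 and MMP10 were lower, beside 67.6% of all genes called (33.9% higher and 33.7% lower). Between week 1 and week 4, MMP2, MMP16 and MMP19 rose and MMP1 fell, beside 40.5% of all genes called (21.8% higher and 18.6% lower). The median log2 difference of the tested members was -0.28 at week 1 and -0.03 at week 4 against week 0, and 0.37 for week 4 against week 1. Over all tested genes those medians were -0.02, 0.00 and 0.01. The shares of members called lie near those of all genes, so the counts say nothing particular about these genes, and what follows describes their levels and directions.

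**Figure D1:**
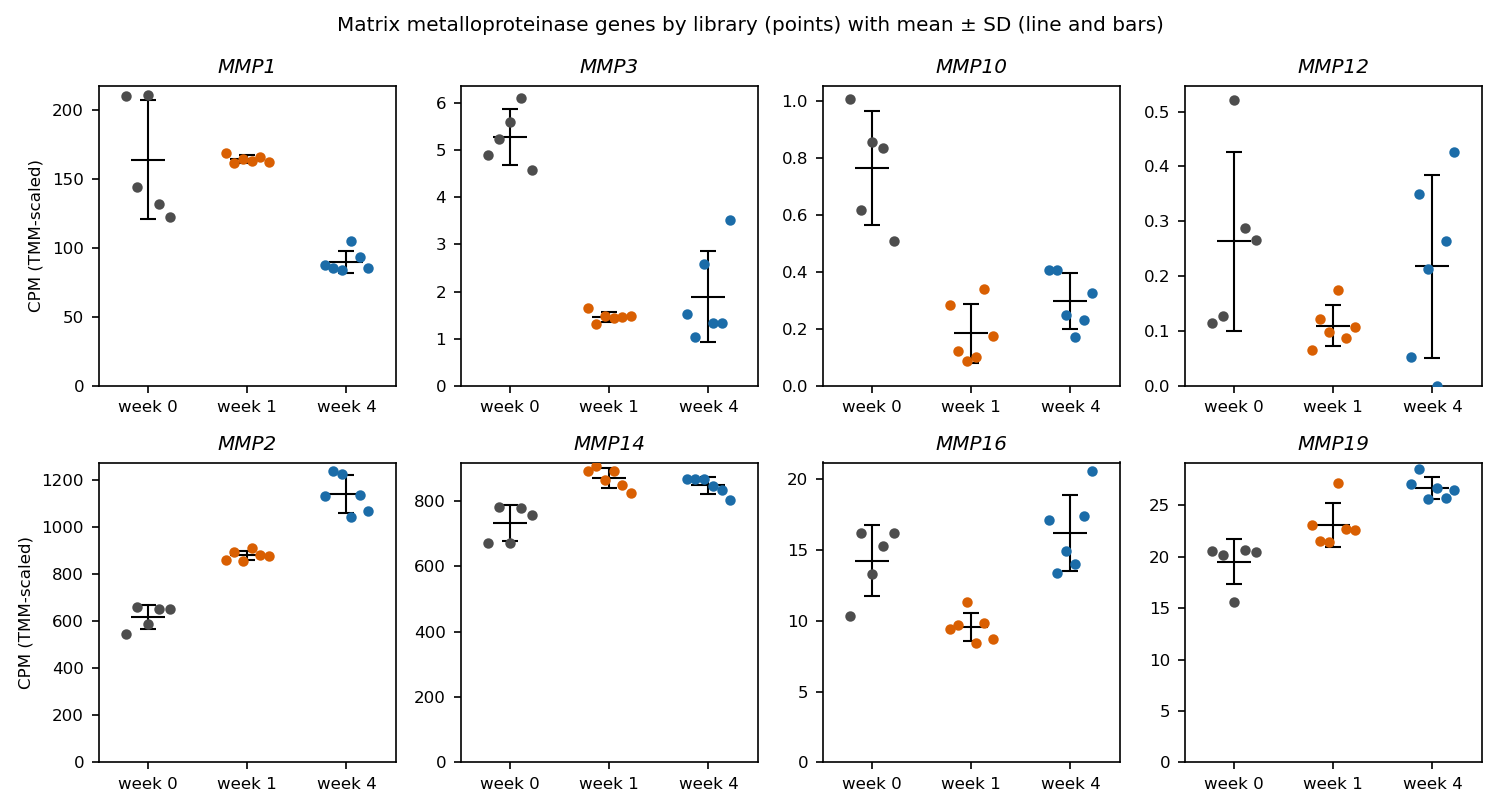
TMM-scaled CPM (linear axes from 0, a scale of its own in each panel) of the 8 tested members in each library (points), with the group mean (line) and SD (bars), for 5 untreated, 6 week 1 and 6 week 4 libraries. MMP2 climbs at each time, MMP1 splits at week 0 into 2 high and 3 lower libraries and lies between 83.9 and 105 CPM at week 4, and MMP3 drops from between 4.57 and 6.10 CPM to at most 3.52 CPM in the treated libraries.

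MMP1 is the interstitial collagenase, a secreted enzyme that cuts the triple helix of fibrillar collagens. It stood at 209.9, 144, 211, 131 and 123 CPM in the untreated libraries (replicates 1, 3, 4, 5 and 6). Its lowest, median and highest values were 162, 164 and 169 CPM at week 1, and 83.9, 86.4 and 105 CPM at week 4. The untreated libraries thus spread over a wider range than the treated ones and enclosed all week 1 values, while every week 4 library lay below every other library. MMP1 was 1.82-fold lower at week 4 than at week 0 (89.98 ± 8.01 against 164 ± 43.2 CPM, SD, n = 6 and 5, log2 difference -0.86 ± 0.11 SE, adjusted p = 4.1e-07). Against week 1 (164 ± 2.64 CPM, SD, n = 6) it was 1.83-fold lower (log2 difference -0.87 ± 0.11, adjusted p = 9.4e-07). From week 0 to week 1 the difference was 0.00 ± 0.11 (adjusted p = 0.97), with an interval of 2 SE from -0.22 to 0.23. That value rests on the 2 high untreated libraries: without replicates 1 and 4, MMP1 was 0.30 higher at week 1 on the log2 scale (adjusted p = 6.9e-05), and at week 4 it was still lower than at week 0, by -0.56 on that scale. The sign of the week 1 difference also turned to -0.16 with library totals alone, though not under the other scalings tried. In the 13 libraries whose files held no gene length, which leaves out untreated replicates 5 and 6, it was -0.21.

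The stromelysins MMP3 and MMP10 have a broad range of substrates and can activate other metalloproteinase precursors, collagenase among them. Both fell early. MMP3 stood at 4.89, 5.23, 5.60, 6.10 and 4.57 CPM in the untreated libraries. At week 1 its lowest, median and highest values were 1.31, 1.47 and 1.64 CPM, and at week 4 they were 1.04, 1.43 and 3.52 CPM. No treated library reached the lowest untreated one. MMP3 was 3.59-fold lower at week 1 (log2 difference -1.84 ± 0.22, adjusted p = 1.4e-07) and 2.78-fold lower at week 4 (-1.48 ± 0.22, adjusted p = 2.7e-06). Between weeks 1 and 4 the groups overlapped and the difference of 0.37 ± 0.22 did not pass (adjusted p = 0.19). The spread at week 4 came from replicates 3 and 6, at 2.59 and 3.52 CPM, while the other 4 week 4 libraries lay between 1.04 and 1.51 CPM, within or near the week 1 range.

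MMP10 was far scarcer. It stood at 1.01, 0.618, 0.856, 0.834 and 0.510 CPM in the untreated libraries, which is 50 to 96 counts each. Week 1 libraries held 8 to 31 counts, with a lowest, median and highest level of 0.0876, 0.148 and 0.340 CPM, and week 4 libraries held 15 to 37 counts at 0.171, 0.286 and 0.408 CPM. All treated libraries lay below all untreated ones. MMP10 was 4.09-fold lower at week 1 (log2 difference -2.03 ± 0.33, adjusted p = 1.3e-05) and 2.56-fold lower at week 4 (-1.36 ± 0.32, adjusted p = 7.5e-04). Its difference of 0.67 ± 0.33 between weeks 1 and 4 did not pass (adjusted p = 0.12), although it did without week 1 replicate 5 (0.94, adjusted p = 0.031). Counts this low carry much counting error: among counts of 10 to 60 in these files, 56.6% to 60.8% were even numbers, more than the near-equal split of single independent reads, so that counts here may not be separate fragments.

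The promoter of MMP10 is shown because, of the 3 members with a promoter to search, it alone held the pattern searched for AP-1. AP-1, the FOS and JUN family factor whose genes are described further on, is long known to act on collagenase and stromelysin promoters. Any part of AP-1 in the fall of MMP10 was not tested, and MMP3, which also fell at both times, had no promoter to search. The 250 bases before the start of MMP10, at chr11:102780629-102780878 on the minus strand of GRCh38.p14 in RefSeq, are printed 5′ to 3′. Capitals mark the single match to the pattern searched.
MMP10 promoter: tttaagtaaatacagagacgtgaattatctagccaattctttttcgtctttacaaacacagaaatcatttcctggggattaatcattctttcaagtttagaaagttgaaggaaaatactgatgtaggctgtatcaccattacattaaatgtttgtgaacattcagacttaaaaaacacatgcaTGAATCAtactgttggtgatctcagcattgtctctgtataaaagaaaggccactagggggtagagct

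The pattern searched was TGANTCA, where N is any base, and it reads the same on both strands. Its match in MMP10 has A in place of N and begins 67 bases before the start. Of 35116 promoters of this length in the RefSeq table, 2308 (6.57%) hold the pattern with any base at N. The table matched 3 members, and the windows of the other two, MMP11 and MMP14, do not contain these letters. A match describes the sequence and is no measured binding site.

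MMP11, the stromelysin that is activated inside the cell by furin, had 0 counts in all libraries but week 1 replicate 4, which had 1 count, and it could not be tested. A library with 0 counts allows up to 3 counts, which is 0.0292 to 0.0389 CPM at these depths, so MMP11 was not detected above that limit.

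MMP12 is the macrophage elastase, which degrades elastin and is chiefly a product of macrophages. In the untreated libraries it stood at 0.115, 0.128, 0.521, 0.288 and 0.265 CPM, which is 11 to 45 counts each. Its lowest, median and highest values were 0.0657, 0.103 and 0.175 CPM at week 1 (6 to 14 counts) and 0, 0.238 and 0.427 CPM at week 4 (0 to 42 counts). The 3 groups overlapped, with the treated and untreated ranges largely shared at week 4. The log2 difference was -1.26 ± 0.59 at week 1 (adjusted p = 0.066), -0.25 ± 0.56 at week 4 (adjusted p = 0.71) and 1.01 ± 0.58 between weeks 1 and 4 (adjusted p = 0.17), and none passed. These calls turned on single libraries and settings. Without week 4 replicate 4, which had 0 counts, the week 1 difference stayed at -1.26 but was called (adjusted p = 0.021). The difference between weeks 1 and 4 was then 1.27 (adjusted p = 0.035). Of 28 alternative settings with a value, 6 called MMP12 lower at week 1, such as without week 0 replicate 1 (-1.45, adjusted p = 0.04). Leukocyte and macrophage markers were low in the same libraries, at levels like those of MMP12. By library totals without TMM factors, none of the 10 listed genes reached a mean of 1 CPM in any group. AIF1 was at 0 in every library, and CD163 was at 0 in the untreated ones. On the same scale the listed genes summed to 0.719 to 1.60 CPM at week 0, 0.894 to 1.17 at week 1 and 0.560 to 1.403 at week 4. The highest at week 0 was CSF1R, at 0.422 ± 0.0762, 0.290 ± 0.0951 and 0.369 ± 0.129 CPM at weeks 0, 1 and 4. CD14 was called higher at week 4 (0.205 ± 0.0860 against 0.448 ± 0.165 CPM), and PTPRC, with 6 counts in 1 untreated library and 0 in the others, was called higher at both times, at 4 to 31 counts at week 1 and 0 to 13 at week 4. The part of such cells in the MMP12 counts was not tested.

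MMP2, gelatinase A, degrades denatured collagen and basement membrane collagen, and its precursor is activated at the cell surface by MMP14 in a complex with TIMP2. It rose at each time. The untreated libraries held 545, 659.6, 589.6, 652 and 652 CPM. The lowest, median and highest values were 855, 881 and 910.1 CPM at week 1 and 1042, 1136 and 1241 CPM at week 4. The 3 groups did not overlap, and the lowest library of each time lay above the highest of the time before. MMP2 was 1.84-fold higher at week 4 than at week 0 (1142 ± 80.3 against 619.7 ± 50.4 CPM, SD, n = 6 and 5, log2 difference 0.88 ± 0.06, adjusted p = 4.5e-12). The week 1 level of 879.9 ± 20.8 CPM (SD, n = 6) was 0.51 ± 0.06 above week 0 on the log2 scale (adjusted p = 4.0e-08) and 0.38 ± 0.05 below week 4 (adjusted p = 5.6e-06). Without untreated replicates 1 and 4, MMP2 was above week 0 by 0.42 at week 1 and 0.80 at week 4 on that scale, both still called.

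The membrane-type enzymes stay anchored in the cell surface. MMP14 is the collagenase of this class and the main activator of MMP2. Its untreated libraries held 673, 783, 671, 778 and 756 CPM, and its lowest, median and highest values were 823, 877 and 906 CPM at week 1 and 804, 856 and 869 CPM at week 4. Every treated library lay above every untreated one, and the treated groups overlapped each other. The rise was small: 0.25 ± 0.05 on the log2 scale at week 1 (adjusted p = 9.3e-05) and 0.21 ± 0.05 at week 4 (adjusted p = 5.5e-04), which is 1.16-fold. Without untreated replicates 1 and 4, where MMP14 was lowest, the rise was 0.17 and 0.13 on that scale, still called at both times. The difference between weeks 1 and 4 was -0.04 ± 0.05 (adjusted p = 0.54), with an interval of 2 SE from -0.13 to 0.05. The calls for MMP14 depend on the TMM factors, since with library totals alone its differences from week 0 were 0.09 (adjusted p = 0.097) and 0.02 (adjusted p = 0.74).

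MMP16, a less abundant membrane-type enzyme that can also activate the MMP2 precursor, moved down and back up. Its untreated libraries held 10.3, 16.2, 13.3, 15.3 and 16.2 CPM. The lowest, median and highest values were 8.41, 9.56 and 11.3 CPM at week 1 and 13.4, 16.01 and 20.6 CPM at week 4. Week 1 lay below week 4 in every library, but overlapped week 0 through untreated replicate 1. MMP16 was 1.49-fold lower at week 1 than at week 0 (log2 difference -0.57 ± 0.12, adjusted p = 1.6e-04) and 1.70-fold higher at week 4 than at week 1 (0.76 ± 0.11, adjusted p = 1.1e-05). Week 4 and week 0 differed by 0.19 ± 0.12 (adjusted p = 0.16), a difference that was -0.004 with library totals alone. Without untreated replicates 1 and 4, the log2 difference of MMP16 from week 0 was -0.73 at week 1, still called, and 0.03 at week 4, not called.

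MMP19 is a secreted enzyme that cuts basement membrane proteins. The untreated libraries held 20.5, 20.2, 15.6, 20.7 and 20.5 CPM, and the lowest, median and highest values were 21.4, 22.7 and 27.1 CPM at week 1 and 25.6, 26.6 and 28.5 CPM at week 4. Both treated groups lay above the untreated one, and they overlapped each other through week 1 replicate 4 at 27.1 CPM. MMP19 was higher by 0.24 ± 0.07 on the log2 scale at week 1 (adjusted p = 0.0053) and by 0.45 ± 0.07 at week 4 (adjusted p = 9.3e-06, 1.37-fold), and week 4 exceeded week 1 by 0.21 ± 0.07 (adjusted p = 0.018). With library totals alone the week 1 difference was 0.08 (adjusted p = 0.35). The share of its exons that overlaps TMEM198B on the other strand means that part of its counts may belong to that gene.

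**Figure D2:**
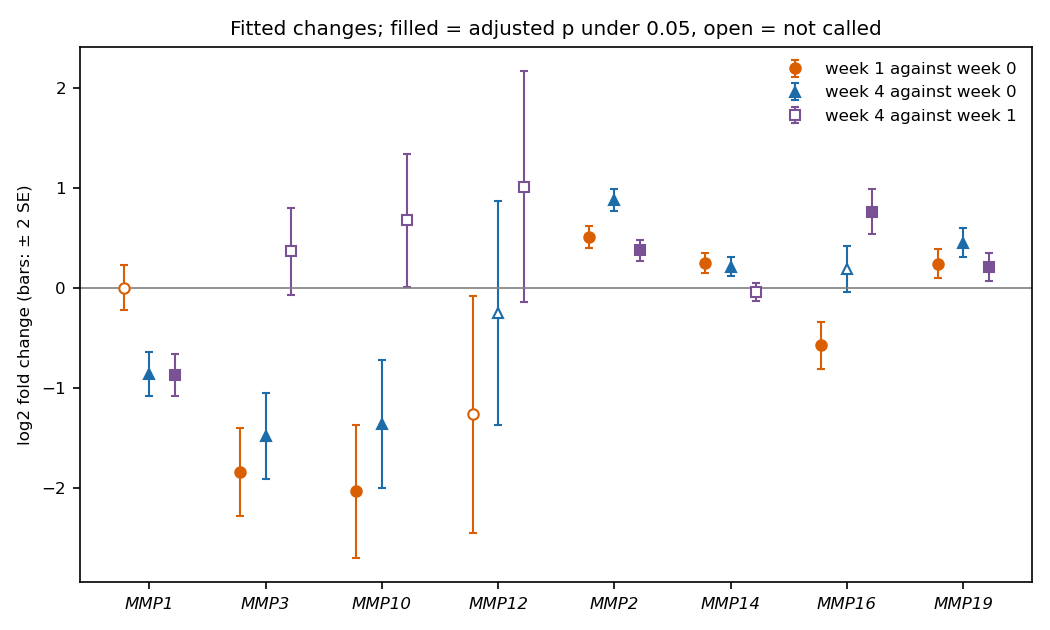
Log2 fold change of each tested member (points) with 2 SE on either side (bars), for both times against week 0 and for the later time against the earlier, with filled symbols where the adjusted p was under 0.05. MMP3 and MMP10 lie between -1.36 and -2.03 in both comparisons with week 0 and MMP2 lies above 0 in all 3, while the points of MMP14 and MMP19 at week 1 and of MMP14 at week 4 were not called without TMM factors.

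Per base of gene, 3 enzymes carried nearly all of the signal. RPKM values, which are CPM divided by gene length in kilobases, were computed from the gene lengths in the deposited files, and summed to 359 ± 9.39 over the members at week 0 (SD, n = 5), 442 ± 9.06 at week 1 and 467 ± 19.4 at week 4 (SD, n = 6 each). At week 0 the order by mean RPKM was MMP14 (158), MMP2 (132), MMP1 (59.8), MMP19 (4.17), MMP3 (2.85), MMP16 (1.18), MMP10 (0.435) and MMP12 (0.145), with MMP11 last, and no neighbours in that order overlapped between libraries. At week 1, MMP14 (188) and MMP2 (187) overlapped, as did MMP3 (0.793) with MMP16 (0.790) and MMP10 (0.105) with MMP12 (0.060). At week 4 MMP2 came first (243), ahead of MMP14 (183) without overlap, and MMP16 (1.34) overlapped MMP3 (1.02), as MMP10 (0.170) overlapped MMP12 (0.120). Among the 16891 tested genes, MMP14 ranked 155th, 129th and 130th by RPKM at weeks 0, 1 and 4, MMP2 ranked 204th, 131st and 97th, and MMP1 ranked 533rd, 548th and 974th.

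By week 4 the makeup of the summed RPKM had shifted from collagenase to gelatinase. MMP1 made up 16.7 ± 4.73% of the sum at week 0, 13.6 ± 0.373% at week 1 and 7.05 ± 0.815% at week 4 (SD, n = 5, 6 and 6). The untreated range of 12.6% to 22.1%, highest in replicates 1 and 4, enclosed the week 1 range of 13.1% to 13.9%. All week 4 libraries lay below both, at 6.29% to 8.50%. MMP2 made up 36.7 ± 2.29%, 42.3 ± 0.799% and 51.9 ± 1.67%, and MMP14 made up 44.1 ± 2.52%, 42.6 ± 0.854% and 39.3 ± 0.924%. The pair of MMP2 and MMP14 thus held 80.8%, 84.9% and 91.2% of the summed transcript level. Its untreated range of 75.4% to 85.0% overlapped that of week 1 (84.6% to 85.5%). These are RNA shares in a population of cells, where fewer cells of a type and less RNA per cell cannot be told apart.

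**Figure D3:**
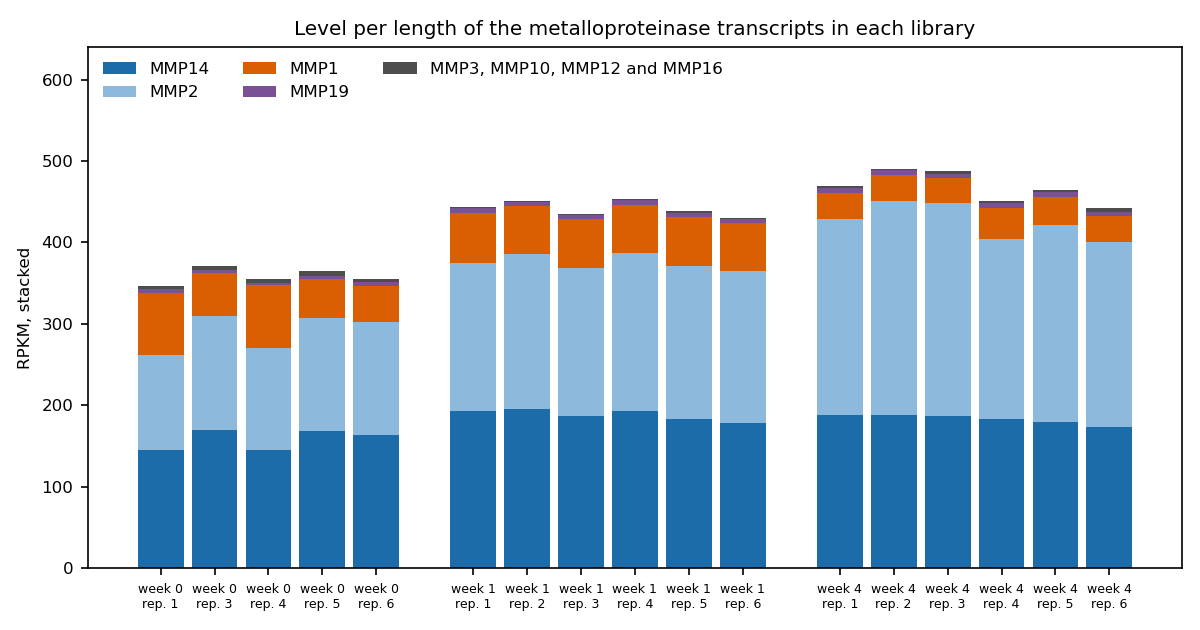
RPKM of the members stacked in each of the 17 libraries (1 bar per library, linear axis from 0), with MMP3, MMP10, MMP12 and MMP16 drawn as 1 segment and MMP11 left out. The MMP2 segment widens and the MMP1 segment narrows towards week 4, where MMP1 is 7.05% of the sum, and untreated replicates 1 and 4 have the widest MMP1 segments.

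The TIMPs are the main natural inhibitors of these enzymes, and RECK is a membrane-anchored inhibitor of several of them. Of 5 inhibitor genes, 4 were higher at week 1 and none lower, 3 were higher at week 4 and none lower, and 3 were lower at week 4 than at week 1 and none higher. Their median log2 difference was 0.48, 0.28 and -0.27 in these comparisons. Over all tested genes, 32.9% were higher and 34.0% lower at week 1, and 33.9% and 33.7% at week 4. At week 4 against week 1 the shares were 21.8% and 18.6%. TIMP1 rose from 1379 ± 57.1 CPM at week 0 to 3731 ± 185 at week 1 and was at 3181 ± 292 at week 4 (SD, n = 5, 6 and 6), and TIMP3, which binds to the matrix, went from 551 ± 49.0 to 2506 ± 64.8 and 2080.3 ± 262 CPM. TIMP2, which both inhibits MMP2 and takes part in its activation, rose from 814 ± 81.4 to 1131 ± 27.0 CPM at week 1 (log2 difference 0.48 ± 0.06, adjusted p = 1.7e-07) and fell to 888 ± 48.9 CPM at week 4. Its week 4 level did not pass against week 0 (0.13 ± 0.06, adjusted p = 0.057), a value that was called under several alternative settings and was -0.07 with library totals alone. RECK was at 161 ± 9.77, 210.4 ± 11.3 and 196 ± 7.83 CPM and was called higher at both times, at week 4 only with TMM factors (0.28 against 0.08 without them, adjusted p = 3.1e-05 and 0.11).

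Ratios of RPKM within a library do not depend on library scaling, and 3 enzyme to inhibitor pairs were tested on the mean log2 ratio with an exact permutation test (two-sided), and the p-values of the 9 tests were adjusted by the Benjamini-Hochberg method. The smallest p these group sizes allow is 0.0022. MMP2 to TIMP2 stood at 1.01 ± 0.0263 at week 0, 1.03 ± 0.0400 at week 1 and 1.70 ± 0.0937 at week 4 (SD, n = 5, 6 and 6). The enzyme and its inhibitor therefore rose side by side to week 1, with a log2 difference of 0.03 (exact permutation p = 0.40). At week 4 every library lay above every other one, with a log2 difference of 0.75 from week 0 and 0.73 from week 1 (both exact permutation p = 0.0022, adjusted p = 0.0028).

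MMP14 to TIMP2 fell from 1.21 ± 0.0571 at week 0 to 1.03 ± 0.0536 at week 1, a log2 difference of -0.23, and stood at 1.28 ± 0.0439 at week 4, 0.31 above week 1 (both adjusted p = 0.0028 in the exact permutation test, without overlap). Week 4 and week 0 overlapped, with a log2 difference of 0.08 (exact permutation p = 0.048, adjusted p = 0.054). That difference passed without untreated replicate 1 (0.11, adjusted p = 0.016 in the exact permutation test) and without week 4 replicate 5 (0.10, adjusted p = 0.045 in the same test). MMP1 to TIMP1 fell throughout, from 0.0631 ± 0.0184 to 0.0233 ± 0.00120 and 0.0151 ± 0.00232. Its log2 differences were -1.39 at week 1 and -2.03 at week 4 against week 0, and -0.64 between weeks 1 and 4, all without overlap (adjusted p = 0.0028 each, exact permutation test). At week 1 the numerator had a log2 difference of 0.00 and TIMP1 one of 1.44, while between weeks 1 and 4 both MMP1 and TIMP1 fell (-0.87 and -0.23).

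**Figure D4:**
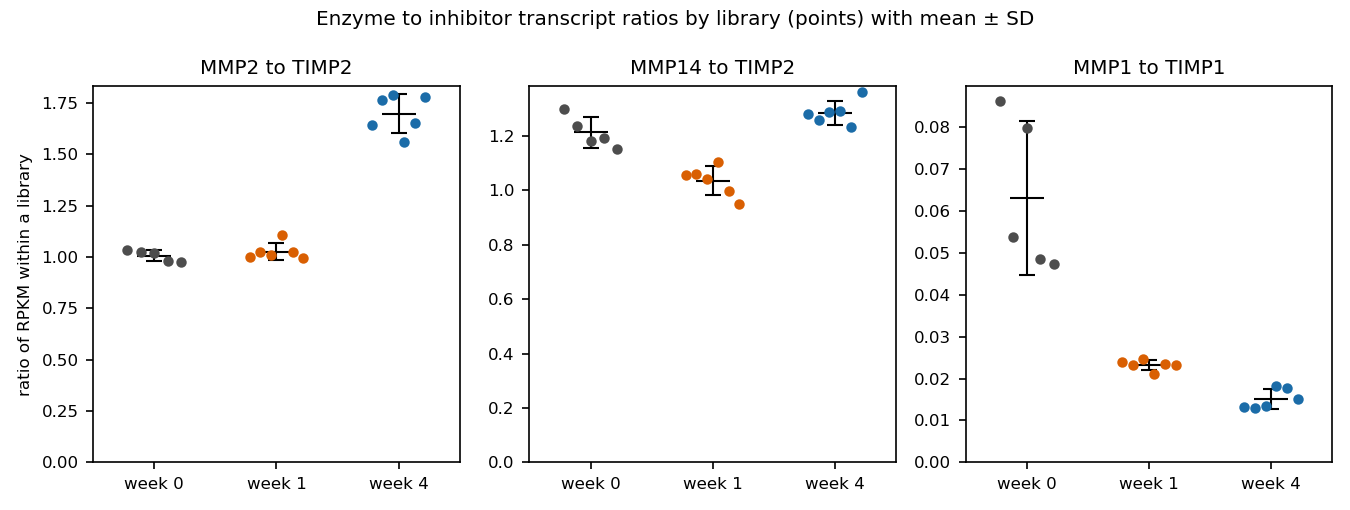
Ratio of enzyme RPKM to inhibitor RPKM in each library (points) with the group mean (line) and SD (bars), on linear axes from 0, for 5 untreated, 6 week 1 and 6 week 4 libraries. MMP2 to TIMP2 is near 1 until week 1 and between 1.56 and 1.79 at week 4, MMP14 to TIMP2 dips at week 1, and MMP1 to TIMP1 is highest in untreated replicates 1 and 4.

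The precursors are activated by furin-type convertases and by the plasminogen system. Of 10 such genes, 7 were higher and 1 lower at week 1, 8 higher and 2 lower at week 4, and 2 higher and 6 lower at week 4 than at week 1 (median log2 differences 0.84, 0.72 and -0.16). The shares of all tested genes called higher and lower were 32.9% and 34.0%, 33.9% and 33.7%, and 21.8% and 18.6%. The urokinase gene PLAU was lower at both times, at 896 ± 32.6, 512 ± 27.2 and 445 ± 51.4 CPM at weeks 0, 1 and 4, and its receptor PLAUR was lower at week 4 (1.21-fold). The tissue activator PLAT was higher, at 557 ± 28.7, 1258 ± 35.2 and 876 ± 64.6 CPM. SERPINE2, which encodes an inhibitor of such proteases, was 4.37-fold higher at week 4 (724 ± 67.2 against 166 ± 12.2 CPM). The list thus holds inhibitors too, so its count of higher genes is no count of activators. PCSK5, a convertase, was higher at week 4 than at week 1 (1.43-fold).

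Members of the AP-1 and ETS families drive many metalloproteinase genes. Of 11 such genes, 5 were higher and 4 lower at week 1, 6 higher and 4 lower at week 4, and 4 higher and 2 lower at week 4 than at week 1 (median log2 differences 0.16, 0.28 and 0.11). Among all tested genes the shares higher and lower were 32.9% and 34.0%, 33.9% and 33.7%, and 21.8% and 18.6%. Within AP-1 the subunits went opposite ways. FOSL1 fell from 293 ± 24.4 CPM to 168 ± 4.58 and 138 ± 10.4 CPM, and FOS from 3.82 ± 0.275 to 1.00 ± 0.236 and 1.97 ± 0.441 CPM. FOSL2, a FOS family gene named here after its values were seen, was higher at both times (118 ± 10.04, 142 ± 3.87 and 153 ± 3.11 CPM), and FOSB did not pass in any comparison. JUN rose from 88.0 ± 5.75 to 195 ± 11.8 and 202 ± 13.8 CPM, and JUND was 1.54-fold higher at week 4. Of the ETS genes, ETV5 was 1.38-fold higher at week 1 and ETS2 was 1.31-fold lower at week 4. ETV4 was lower than at week 0 at both times, at 27.95 ± 1.76, 15.9 ± 1.52 and 21.2 ± 1.54 CPM, and its week 4 level was 1.33-fold above that of week 1. JUNB was slightly lower at week 1 and higher at week 4 than at week 0 (-0.13 and 0.35 on the log2 scale), and rose by 0.48 between them.

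Cytokines, receptors and the inducer basigin (BSG) raise metalloproteinase expression in fibroblasts. Of 8 tested genes of 11 listed, 6 were higher and 1 lower at week 1, 6 higher and none lower at week 4, and 4 higher and 1 lower at week 4 than at week 1 (median log2 differences 0.51, 0.66 and 0.17). Shares higher and lower over all tested genes were 32.9% and 34.0%, 33.9% and 33.7%, and 21.8% and 18.6%. TNF, OSM and DDR1 were too low to test. IL6 rose from 6.80 ± 1.24 to 27.6 ± 2.69 and 27.2 ± 5.09 CPM, BSG was 1.58-fold higher at week 1, and DDR2, a collagen receptor that induces MMP1 in fibroblasts, was 1.95-fold higher at week 4. IL1R1, the signalling receptor of interleukin-1, was 1.33-fold lower at week 1 and 1.34-fold higher at week 4 than at week 1.

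Secreted metalloproteinases dock on surface proteins such as CD44 and integrins and are cleared by LRP1, often bound to thrombospondins. Of 9 such genes, 7 were higher and 1 lower at week 1, 8 higher and 1 lower at week 4, and 5 higher and 1 lower at week 4 than at week 1 (median log2 differences 0.40, 0.74 and 0.38). For all tested genes the shares higher and lower were 32.9% and 34.0%, 33.9% and 33.7%, and 21.8% and 18.6%. THBS2, whose product binds MMP2 for clearance, rose from 79.3 ± 8.93 to 211 ± 14.6 and 296 ± 15.4 CPM, and SDC4 rose from 254 ± 12.8 to 505 ± 16.3 and 539.7 ± 26.3 CPM. SDC1 fell from 78.7 ± 4.77 to 36.7 ± 2.04 and 33.3 ± 3.22 CPM. THBS1 and ITGB3 were higher at week 4 than at week 1, by 0.51 and 0.58 on the log2 scale. CD44 was higher than at week 0 at both times (0.48 and 0.21 on the log2 scale), and its week 4 level was 1.21-fold below that of week 1.

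The matrix proteins that these enzymes cut moved in both directions at week 1 and mostly upward later. Of 14 substrate genes, 6 were higher and 7 lower at week 1, 11 higher and none lower at week 4, and 11 higher and none lower at week 4 than at week 1 (median log2 differences -0.10, 0.76 and 0.47). Over all genes tested, the shares higher and lower were 32.9% and 34.0%, 33.9% and 33.7%, and 21.8% and 18.6%. BCAN, called higher at both times against week 0, had 12 counts in all at week 0 and could hardly be called lower from there. It passed the filter through treated libraries, so the counts of higher substrate genes are partly set by it. Fibronectin (FN1) rose from 11622 ± 1595 to 36589 ± 2447 and 44953 ± 2485 CPM, and COL5A1 was 2.71-fold higher at week 4. Elastin (ELN) was at 332 ± 29.98, 159 ± 14.0 and 408 ± 40.6 CPM and tenascin C (TNC) at 2002 ± 249, 1124 ± 74.0 and 3366 ± 284 CPM, and both were lower at week 1 and higher at week 4.

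Of 14 other metalloproteinase genes, 8 could be tested. At week 1, 5 were higher and none lower, at week 4, 6 were higher and 1 lower, and at week 4 against week 1, 2 were higher and 2 lower (median log2 differences 1.38, 1.68 and 0.12). All tested genes had shares of 32.9% and 34.0%, 33.9% and 33.7%, and 21.8% and 18.6%. MMP8, MMP9 and MMP23B had 0, 12 and 24 counts in all at week 0 and could hardly be called lower from there. They passed the filter through treated libraries, so these counts and medians are partly set by it. With a stricter filter 2 were higher at each time. The membrane-type genes MMP24 and MMP15 rose 5.64-fold and 2.76-fold at week 1, from 1.23 ± 0.167 to 6.96 ± 0.893 CPM and from 2.44 ± 0.305 to 6.72 ± 0.720 CPM, and both were lower again at week 4 (4.70 ± 0.638 and 4.64 ± 0.537 CPM) while staying above week 0. MMP17 was 1.27-fold lower at week 4 than at week 0, in groups that overlapped. MMP9, the other gelatinase, was at 0.0247 ± 0.0164, 0.111 ± 0.0826 and 0.573 ± 0.190 CPM, which is at most 82 counts in a library, and MMP23B reached 0.167 ± 0.0751 CPM at week 4. The remaining genes called higher, chosen for mention after their values were seen, were MMP8, with 0 counts in every untreated library and 6 to 29 at week 1, and MMP25, at 0.131 ± 0.0427 and 0.324 ± 0.0946 CPM. Per length, MMP9 at week 4 stood at 0.245 ± 0.0814 RPKM against 243 for MMP2, so that MMP2 made up nearly all of the gelatinase transcript level.

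For each tested member, the genes whose profile over the 17 libraries was most alike were found by the root mean square difference of centred log2 CPM among genes with a mean of at least 5 CPM. MMP14 had the closest neighbours, NRSN2 and COPG1 (both 0.032), followed by MMP2 with ARHGEF2 (0.053) and ARAP1 (0.065), and MMP19 with ACADVL (0.078) and CUL7 (0.083). The distance is not divided by a gene's own spread, and MMP14 deviated least from its own mean (0.126, against 0.363 for MMP2). MMP16 lay nearest to ATXN1 (0.135) and INSYN2B (0.147), and MMP1 to POLR2L (0.165) and ADI1 (0.175). MMP3 lay nearest to TCF21 (0.299) and TRPA1 (0.303), MMP10 to MAB21L2 (0.508) and HSPA2 (0.509), and MMP12 to TRPC6 (1.21) and TRPA1 (1.27). For MMP12 that distance was close to the size of its own deviations from its mean (1.47), so that no gene came near its profile.

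Markers of other cell types were followed in the same libraries. The marker sums, and the counts of markers at 1 CPM or more, use library totals without TMM factors. Endothelial markers (8 genes, 3 at 1 CPM or more) summed to 10.3 to 11.9 CPM at week 0, 10.8 to 13.04 at week 1 and 14.7 to 19.0 at week 4. Epithelial markers (8 genes, 4 at 1 CPM or more, KRT18 the highest) summed to 69.8 to 76.7 CPM at week 0, 238 to 278 at week 1 and 199 to 217 at week 4, with KRT5 and KRT14 at 0 in the untreated libraries. Summed fibroblast markers rose from between 33459 and 39595 CPM to between 43239 and 45442 at week 1 and between 55248 and 58546 at week 4. Of these sums the fibroblast one rose at both steps without overlap, as MMP2 did, and its part in the rise of MMP2 was not tested. That sum is weighted by COL1A1 and COL1A2 (means of 20357 and 17561 TMM-scaled CPM at week 1), and single markers differed. COL1A1, COL1A2, LUM, THY1 and FAP were higher at week 1 than at week 0, while FBN1 and VIM were not called. PDGFRA, COL3A1 and DCN were lower (2.09-, 1.33- and 1.30-fold). Between weeks 1 and 4, COL1A1, COL1A2, COL3A1, LUM, FBN1 and PDGFRA rose, THY1 and VIM fell, and FAP and DCN were not called. PDGFRA was still lower at week 4 than at week 0. The endothelial sums of weeks 0 and 1 overlapped, and the epithelial sum was lower at week 4 than at week 1. Endothelial markers also went both ways at week 1, with KDR and TIE1 lower and PECAM1, VWF and EGFL7 higher than at week 0. So did epithelial ones: the keratins KRT8, KRT18 and KRT19 and also CDH1 were higher, CLDN4 was lower and EPCAM was not called.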

How the data were processed

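Gene counts were analysed as deposited by the authors in 17 files, 1 per library, each with 41041 entries. The entry without a name (0.221% to 0.289% of counts) was left out. The submitters' processing notes list HISAT2 2.0.5.2, featureCounts 1.4.6 and the mouse build mm10, although the gene symbols are human, so the build used for counting is not clear, and coordinates given here come from the GENCODE 29 and RefSeq annotations alone. Gene length in bases is a further deposited column in 4 files (week 0 replicates 5 and 6, week 1 replicates 1 and 2), identical in all 4, and was used for RPKM in all libraries. Whether this file format marks a batch is not stated.

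All 17 libraries were fitted in 1 model with 1 term per group, using edgeR 4.0.16 in R 4.3.3 (TMM factors of 0.938 to 1.106, filterByExpr, 16891 genes tested). The script was tested on simulated counts. No 2 replicates agreed within sampling noise (lowest chi-square 7.62 per gene over 40 pairs). Alternatives were other scalings and filters, DESeq2 1.42.0, limma-voom (limma 3.58.1), a term for file format, the 13 files without length alone, a replicate block, and leaving out libraries. Library totals without TMM factors were added after seeing the data.

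The members and the gene lists (inhibitors, activators, transcription factors, inducers, docking and clearance, substrates, other metalloproteinases, markers) were chosen with earlier results of these data known. Named were all members, up to 2 rising and 2 falling genes per list with the smallest adjusted p, TIMP1, TIMP2, TIMP3 and RECK, and the 2 genes nearest to each member. Some genes that this rule names are not reported here. No intervals for counting error are given, since counts without molecular identifiers are not independent molecules, and the limit of 3 counts covers counting error only.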

Additional observations from a re-analysis of the deposited data

Results flagged for a closer look

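MMP19 had 2 libraries whose gap to the next library passed the limit of Dixon's test at this group size. Week 0 replicate 4 was the lowest untreated library at 15.62 CPM, with the next at 20.2 CPM and a gap of 0.906 of the group's range. Week 1 replicate 4 was the highest of its group at 27.15 CPM, with the next at 23.1 CPM and a gap of 0.704 of the range. In all, 24 groups of member values were examined, and chance alone flags about 1 in 20. The calls for MMP19 at week 1 and week 4 against week 0 held without either library.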

How the results depend on the processing

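Of 16 called differences of members, refitted under 29 alternative settings where a value could be had, 458 of 462 values stayed called in the same direction and none reversed. The 4 others were MMP14 at both times and MMP19 at week 1 with library totals, and MMP19 between weeks 1 and 4 in the files without length alone (0.19, adjusted p = 0.068). With library totals, 1 member in place of 3 was called higher at week 1. Of 228 values for differences not called, 9 became called and 10 changed sign. MMP1 at week 1 was -0.003 with no filter, -0.16 with library totals, -0.21 in the files without length and -0.0841 to 0.1107 when single libraries were left out. MMP12 at week 4 against week 0 ranged from -0.55 to 0.14 when single libraries were left out. With library totals, week 4 against week 0 was -0.0036 for MMP16 and -0.0681 for TIMP2. MMP12 at week 1 was called in 6 of 28 settings, DESeq2 among them (adjusted p = 0.049). With a stricter filter on low counts 2 in place of 5 other metalloproteinases were higher at week 1 and 2 in place of 6 at week 4.

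Replicate numbers did not pair the samples: deviations of 16 same-numbered pairs correlated at -0.0411 to 0.0548, against -0.0561 to 0.0515 for other pairs. A replicate block changed no call of a member. For the ratios it allows sign flips over 5 or 6 pairs only, which cannot reach an adjusted p under 0.05 here: MMP2 to TIMP2 was 0.74 and 0.73 at week 4 against weeks 0 and 1, MMP14 to TIMP2 -0.24 at week 1 and 0.31 between weeks 1 and 4, and MMP1 to TIMP1 -1.39, -1.99 and -0.64. MMP14 to TIMP2 at week 4 against week 0 passed without week 0 libraries 1 and 4 (0.11) and ranged from 0.0668 to 0.11 when single libraries were left out. Depth limits MMP10, MMP11 and MMP12, with at most 96 counts in a library.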
